A study of Bos taurus with 24 samples.

Results

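The genes described here are IL1R1, IL1RAP, IL1RN, IL1RL1 and IL4R, which encode receptor chains and an antagonist for the cytokines IL1, IL33, IL4 and IL13. They were chosen by symbol, with earlier results of these data known, and all 5 are among the 11937 genes of the deposited count table. The table comes from RNA sequencing of satellite cells of cattle, which are muscle stem cells, grown alone (monoculture) or sharing medium with fibroblasts across 0.4 µm pores (coculture). Each culture was sampled in proliferation, after 5 days in 20% fetal bovine serum, and at 24 h and 72 h after a switch to 10% horse serum, which starts differentiation. There are 4 libraries in each of the 6 groups. All groups are labelled wild type and longissimus dorsi. The satellite cells were a mix of 3 lines at passage 3, the fibroblasts were at passage 10, and plating was at 8000 cells per cm2. The labels leave unstated whether monoculture wells had an insert without cells and whether replicates are separate cultures. A p-value here therefore reflects only how these samples vary, and that variation may be technical.

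IL1R1 is the chain that binds IL1 alpha and IL1 beta, and IL1RAP is the accessory chain that must join it before a signal starts through MYD88, the IRAK kinases and TRAF6 to NF-kB and the p38 and JNK kinases. IL1RN encodes the IL1 receptor antagonist, which occupies IL1R1 without recruiting IL1RAP. IL1RL1, also called ST2, binds IL33 and uses the same IL1RAP chain; it is best known on mast cells and type 2 lymphoid cells and, in fibroblasts, as a gene induced by serum. IL4R is the chain shared by the IL4 and IL13 receptors, paired with IL2RG or IL13RA1, and signals through JAK kinases and STAT6; IL4 is known to act in the fusion of myoblasts. In muscle, IL33 is known as a product of fibro-adipogenic progenitors.

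Library totals ran from 11.5 to 35.0 M counts, and every gene in the table had at least 6 counts in every library used. Nuclear ribosomal RNA took more of the total in coculture at 24 h replicate 2 (4.07%), coculture at 72 h replicate 1 (2.24%) and monoculture at 72 h replicates 3 (2.14%) and 4 (1.76%) than elsewhere. Of 15 satellite cell markers, 5 were listed (DES, ITGA7, MET, PAX3 and SDC4), and PAX7, MYF5, MYOD1 and MYOG were not analysed here. Of 19 myotube markers MYL4 alone was listed, at a sum of 0.816 to 4.44 CPM (counts scaled to a common library total). Of 16 fibroblast and fibro-adipogenic markers, 13 were listed. Of 16 leukocyte markers only CD68 and FCER1G were listed, at summed levels of 0.959 to 3.26 CPM, and of 9 markers of mast cells, basophils and type 2 lymphoid cells only RORA was listed. By their library names all monoculture libraries were run on lane 6, as were coculture libraries in proliferation and replicates 1 and 2 at 24 h; the other coculture libraries were run on lane 7. The labels hold a further number and do not give its meaning. It was 1 in monoculture at 24 h and 72 h and 2 in all other groups. At those times it cannot be told apart from culture. Nor can it be told apart from the monoculture step from proliferation to 24 h, or from a change of the culture difference from proliferation.

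Values below are CPM, scaled with TMM factors, in the order of replicates 1 to 4. Differences are log2 fold changes from edgeR's quasi-likelihood test with p-values adjusted over all 11937 genes, and "called" means an adjusted p below 0.05. In proliferation 59% of all genes were called between the cultures (30.3% higher and 28.7% lower in coculture), and 3 of the 5 genes were (1 higher, 2 lower). At 24 h 23.8% of all genes were called (11.5% higher, 12.2% lower), and 4 of the 5 genes were (2 higher, 2 lower). At 72 h 50.5% of all genes were called (25.1% higher, 25.4% lower), and 3 of the 5 genes were (2 higher, 1 lower). With calls this common, 3 of 5 is near the background in proliferation and at 72 h. The 5 genes and the lists below were chosen with earlier results of these data known. No excess over all genes can therefore be read from 4 of 5 at 24 h, nor from the later shares. In bulk RNA, fewer cells of a type and less RNA per cell cannot be told apart.

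**Figure D1:**
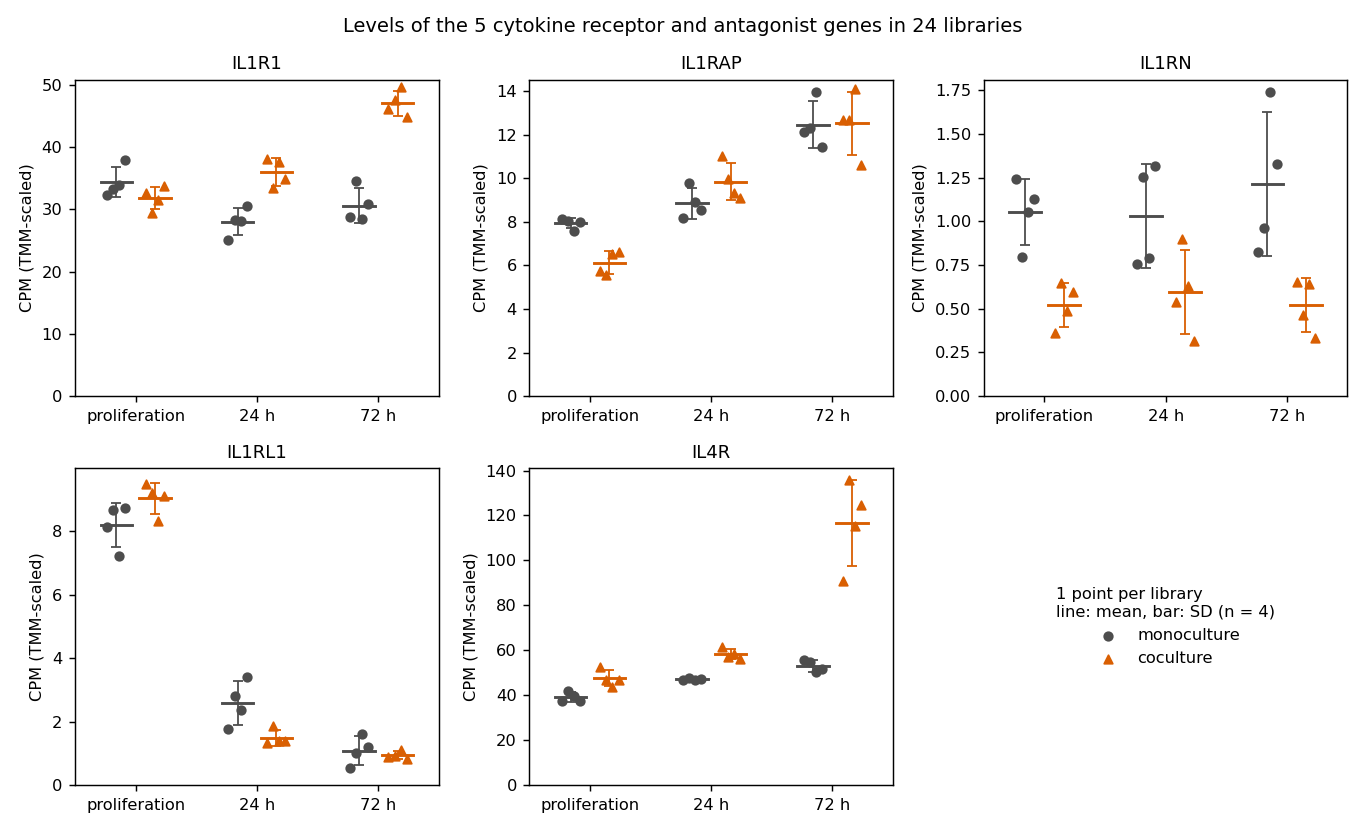
Level of each gene in CPM (y axis of each panel) in every library by culture and time; points are libraries, lines are group means and bars are the SD over 4 libraries. IL4R and IL1R1 stand highest in coculture at 72 h, and IL1RL1 falls from proliferation to 72 h in both cultures.

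IL1R1, the IL1 binding chain, was higher in coculture after the switch to horse serum but not before it. In proliferation it stood at 32.4, 33.2, 33.9 and 37.9 CPM in monoculture and 32.7, 29.5, 31.4 and 33.7 in coculture. These libraries overlapped, and the difference of -0.12 (95% interval -0.25 to 0.01) was not called (adjusted p = 0.117). At 24 h the values were 25.1, 28.3, 28.2 and 30.6 CPM in monoculture and 38.1, 33.4, 37.5 and 34.8 in coculture. Every coculture library lay above every monoculture library, by 0.36 (SE 0.0658, adjusted p = 0.000144). At 72 h the values were 28.7, 34.5, 28.4 and 30.8 CPM in monoculture and 46.0, 47.6, 49.6 and 44.8 in coculture. The groups were again apart, by 0.62 (SE 0.0647) or 1.54-fold, with an adjusted p of 2.76e-09. Within monoculture IL1R1 fell by 0.29 from proliferation to 24 h (adjusted p = 0.00025) and was not called from 24 h to 72 h, at 0.12 (95% interval -0.01 to 0.26, adjusted p = 0.119). Within coculture it rose by 0.18 (adjusted p = 0.0243), with overlapping libraries, and then by 0.39 (adjusted p = 6.17e-06). The first of these calls ended without coculture replicate 2 in proliferation or replicate 1 or 3 at 24 h, and with library sizes alone (0.058), under which IL1R1 was lower in coculture in proliferation (-0.19, adjusted p = 0.035). Ordered by mean, coculture at 72 h was highest and overlapped no other group, while each neighbouring pair among the other 5 groups overlapped.

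IL1RAP, the accessory chain of both IL1R1 and IL1RL1, was lower in coculture only in the proliferation comparison and rose with time in both cultures. In proliferation it stood at 8.13, 8.03, 7.60 and 7.99 CPM in monoculture and 5.76, 5.57, 6.53 and 6.62 in coculture. The groups did not overlap, and the difference was -0.40 (SE 0.102, adjusted p = 0.00137). At 24 h the values were 8.17, 9.78, 8.90 and 8.54 CPM in monoculture and 11, 9.96, 9.34 and 9.09 in coculture. These overlapped, with a difference of 0.14 (95% interval -0.05 to 0.33, adjusted p = 0.29). At 72 h IL1RAP stood at 12.1, 12.3, 13.97 and 11.5 CPM in monoculture and 12.7, 12.7, 14.1 and 10.6 in coculture. The fitted difference was 0.00 (95% interval -0.18 to 0.18, adjusted p = 0.993). The change of the culture difference from proliferation was itself called, at 0.54 (adjusted p = 0.00183) to 24 h and 0.40 (adjusted p = 0.0118) to 72 h. In coculture the rise was 0.70 to 24 h (adjusted p = 1.04e-06) and 0.35 from 24 h to 72 h (adjusted p = 0.00198). In monoculture the first step, 0.17, was not called (95% interval -0.03 to 0.36, adjusted p = 0.127), and the second rose by 0.49 (adjusted p = 4.62e-05). Ordered by mean, both 72 h groups overlapped each other, then both 24 h groups did, and both proliferation groups were lowest and apart. Coculture at 72 h also overlapped coculture at 24 h, with replicate 4 at 10.6 CPM below replicate 1 at 11 CPM.

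By the coordinates in the deposited tables (genome build: not given in the sources), IL1RAP (ENSBTAG00000013205) lies on chromosome 1 from 76584275 to 76723345. A protein-coding gene without a symbol, ENSBTAG00000059070, spans 76582347 to 76669315 there and overlaps it, so reads may have been shared and the IL1RAP level is uncertain to that extent. That gene was lower in coculture by -0.90 in proliferation (adjusted p = 0.000267) and -0.61 at 72 h (adjusted p = 0.00311), with -0.16 at 24 h (adjusted p = 0.553). Its part in the IL1RAP values was not tested. No other listed gene overlapped the remaining 4. IL1R1 (ENSBTAG00000005273, 6876050 to 6915249) and IL1RL1 (ENSBTAG00000018571, 7133469 to 7153551) lie on chromosome 11 with 218 kb between them, and IL18R1 (7165306 to 7192645), a receptor chain for IL18, begins 11.8 kb after IL1RL1. IL1RN (ENSBTAG00000019665) is on chromosome 11 from 46815530 to 46837406, and IL4R (ENSBTAG00000001602) on chromosome 25 from 24872728 to 24922679.

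IL1RN, the antagonist, was lower in coculture at all 3 times, at low counts of 6 to 30 reads per library. In proliferation it stood at 1.24, 0.798, 1.06 and 1.13 CPM in monoculture and 0.360, 0.646, 0.490 and 0.596 in coculture. All coculture libraries lay below all monoculture libraries, by -0.92 (SE 0.296, adjusted p = 0.00859). At 24 h the values were 0.754, 1.25, 0.790 and 1.32 CPM in monoculture and 0.538, 0.901, 0.630 and 0.315 in coculture. Coculture replicate 2 overlapped monoculture here, and the difference of -0.82 (SE 0.299) was called at an adjusted p of 0.0444. That call ended without any 1 of 5 of the 8 libraries (monoculture replicates 2 and 4, coculture replicates 1, 3 and 4), where the adjusted p reached 0.194. It also ended with DESeq2, with the replicate block, with a fit on the compared groups only, and with lane as a covariate or lane 6 alone. At 72 h IL1RN stood at 0.822, 0.959, 1.74 and 1.33 CPM in monoculture and 0.652, 0.464, 0.641 and 0.332 in coculture. The groups did not overlap, with a difference of -1.19 (SE 0.309, adjusted p = 0.00184), a level 2.28-fold lower in coculture. The 72 h call ended with lane as a covariate (-0.52, adjusted p = 0.535) and without the 4 libraries rich in ribosomal RNA (-0.91, adjusted p = 0.0565). IL1RN showed no called change with time in either culture, and each neighbouring pair of groups in the order of means overlapped.

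IL1RL1, the IL33 receptor, was high in proliferating cells of both cultures and fell steeply after the switch to horse serum. In proliferation it stood at 8.13, 8.68, 7.23 and 8.72 CPM in monoculture and 9.48, 9.21, 8.32 and 9.12 in coculture. The libraries overlapped, and the difference of 0.15 (95% interval -0.12 to 0.41) was not called (adjusted p = 0.343). At 24 h the values were 1.76, 2.80, 2.37 and 3.39 CPM in monoculture and 1.32, 1.85, 1.37 and 1.40 in coculture. Coculture replicate 2 lay above the lowest monoculture library and the other 3 below all of them, and the difference was -0.80 (SE 0.201, adjusted p = 0.00396). At 72 h IL1RL1 stood at 0.532, 1.02, 1.61 and 1.18 CPM in monoculture and 0.889, 0.927, 1.11 and 0.806 in coculture, from 11 to 25 reads. Here the groups overlapped, with -0.17 (95% interval -0.73 to 0.39, adjusted p = 0.629). Gene counts do not separate the membrane form of IL1RL1 from its soluble form, nor the secreted forms of IL1RN and IL1RAP from their other forms.

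The fall of IL1RL1 with time was among the steepest in the table. From proliferation to 24 h it fell by 1.66 in monoculture (SE 0.154, adjusted p = 8.33e-11), the rank 7 fall of 11937 genes. Over the same step in coculture it fell by 2.60 (SE 0.168, adjusted p = 1.54e-13), a 6.07-fold lower level. This was the largest fall among the 11937 listed genes in that comparison. A gene with fewer than 6 reads in any library is not listed, so a steeper fall to such a level could not be ranked. The steps of IL1RL1 differed between cultures by -0.94 (SE 0.24, adjusted p = 0.00167). From 24 h to 72 h it fell by a further 1.30 in monoculture (adjusted p = 1.07e-05) and 0.68 in coculture (adjusted p = 0.0243). Without coculture 24 h replicate 2 that coculture step was -0.56 (adjusted p = 0.0935), and without coculture 72 h replicate 4 it was -0.61 (adjusted p = 0.0724). Ordered by mean, the proliferation groups overlapped each other and stood above all later groups, which overlapped with their neighbours.

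IL4R, the chain shared by IL4 and IL13, was higher in coculture at all 3 times, most at 72 h. In proliferation it stood at 37.2, 41.8, 39.5 and 37.4 CPM in monoculture and 52.4, 46.7, 43.8 and 46.9 in coculture, a difference of 0.28 (SE 0.0779, adjusted p = 0.00256). At 24 h the values were 46.9, 47.8, 46.9 and 47.3 CPM in monoculture and 61.5, 57.2, 58.1 and 56.1 in coculture, a difference of 0.30 (SE 0.0758, adjusted p = 0.00381). No library of one culture overlapped the other at either time. At 72 h IL4R stood at 55.5, 54.8, 50.1 and 51.4 CPM in monoculture and 90.8, 136, 115 and 125 in coculture. The groups were far apart, by 1.14 (SE 0.0737, adjusted p = 9.97e-14) or 2.20-fold, and the lowest coculture library, replicate 1, is one of the 4 rich in ribosomal RNA. Without those 4 libraries the difference was 1.18. In coculture IL4R rose by 0.29 to 24 h (adjusted p = 0.00229) and by 1.00 from 24 h to 72 h (adjusted p = 5.45e-13). In monoculture it rose by 0.28 to 24 h (adjusted p = 0.00256), and the later step of 0.17 was not called (95% interval 0.01 to 0.32 before adjustment, adjusted p = 0.0667). With library sizes alone neither step to 24 h was called (0.17 in coculture and 0.086 in monoculture). Coculture at 72 h and then coculture at 24 h were the highest groups and overlapped no other.

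PDGFRA, a marker of fibroblasts and fibro-adipogenic progenitors, had a 72 h level of 120.5 ± 12.1 CPM with fibroblasts and 46.3 ± 3.24 CPM without (SD, n = 4), the time at which IL4R and IL1R1 differed most. The sum of the 10 listed markers of that list other than collagens ran from 2516 to 2652 CPM in coculture and from 2336 to 3559 in monoculture. With the 3 collagens the sums were 114150 to 118162 and 120786 to 138900 CPM. Of the 13 markers, 3 were higher in coculture (PDGFRA at 1.38, TCF4 at 0.60 and DCN at 0.26), 4 were lower (S100A4 at -0.77, PDGFRB at -0.45, COL1A1 at -0.21 and COL1A2 at -0.12), and 6 were not called. The symbol TCF4 is that of an E protein gene, not of TCF7L2, the fibroblast marker also known as TCF4. Its place in this list is therefore doubtful, and it is included in the 13, the 10 and their sums. Markers of other cell types differed at 72 h too. Of 11 smooth muscle and pericyte markers 8 were listed, with 7 lower (among them CSPG4 at -1.30 and ACTA2 at -0.77) and SMTN higher at 0.42, and their sums ran from 9352 to 10409 CPM in coculture and 14088 to 16436 in monoculture. Of the 5 listed satellite cell markers, ITGA7 (-2.01) and DES (-0.78) were lower, PAX3 (0.20) and SDC4 (0.16) higher and MET not called, with sums of 236.4 to 248.3 CPM in coculture and 394.2 to 429.6 in monoculture. MYL4 was lower at -1.17, and RORA was higher at 0.83. The part of these markers in the receptor values was not tested.

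**Figure D2:**
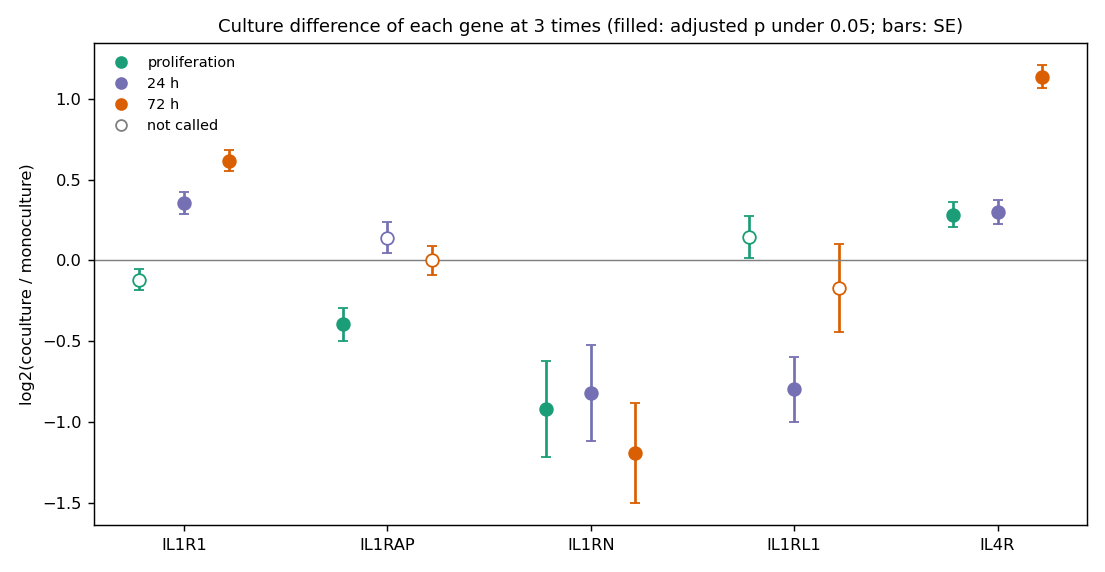
Log2 difference of coculture over monoculture for each gene at the 3 times (y axis, log2), with bars of 1 SE from the fit over 24 libraries and filled points where called. IL1R1 moves from -0.12 to 0.62 and IL4R from 0.28 to 1.14, while IL1RN lies below 0 throughout.

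The change of the culture difference between times was tested directly. From proliferation to 24 h it was called for 3 of the 5 genes against 50.5% of all genes: IL1RL1 and IL1RAP as above, and IL1R1 at 0.48 (SE 0.0927, adjusted p = 0.000101). From 24 h to 72 h it was called for 2 of 5 against 23.7% of all genes. These were IL4R at 0.84 (SE 0.106, adjusted p = 5.55e-07) and IL1R1 at 0.26 (SE 0.0924, adjusted p = 0.0377), of which the IL1R1 call ended without any 1 of 9 libraries (monoculture 24 h replicates 2, 3 and 4, monoculture 72 h replicates 1 and 3, coculture 24 h replicates 2 and 4, coculture 72 h replicates 2 and 3). From proliferation to 72 h it was called for 3 of 5 against 62.3% of all genes, with IL4R at 0.86 (adjusted p = 6.80e-08) and IL1R1 at 0.74 (adjusted p = 6.25e-08) beside IL1RAP. For IL1RN no such change was called, with values of 0.10, -0.37 and -0.27 and intervals that reach from -1.27 to 0.97. Over time within a culture, 3 of the 5 genes were called from proliferation to 24 h in monoculture, where 68.5% of all genes were, and 2 of 5 from 24 h to 72 h, where 53.9% were. In coculture 4 of 5 were called at each step, against 43.2% and 48.2% of all genes.

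Lane and culture are partly confounded, so values within a lane stand beside the pooled ones. At 24 h, with lane 6 libraries only (2 in coculture, 4 in monoculture), IL1R1 differed by 0.34 (adjusted p = 0.0061) and IL4R by 0.33 (adjusted p = 0.0009). In the same libraries IL1RL1 differed by -0.70 (adjusted p = 0.0812) and IL1RN by -0.51 (adjusted p = 0.373), so neither kept its call. At 72 h no lane holds both cultures. A fit over all groups with lane as a covariate gave 1.19 for IL4R (adjusted p = 4.11e-08) and 0.60 for IL1R1 (adjusted p = 0.000159) at that time. Its lane term was estimated only from coculture at 24 h, the only group run on both lanes (replicates 1 and 2 against 3 and 4). Replicate 2 there is the library with 4.07% ribosomal RNA. That estimate was carried over to 72 h, where lane and culture cannot be told apart. The same holds for every 72 h value given with lane as a covariate.

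Counts of a pair of genes in the same library give a ratio that needs no scaling between libraries. Its size depends on gene lengths, so it is compared only between cultures. Of 12 such tests (exact permutation, two-sided, 4 against 4 libraries, smallest possible p 0.0286), 10 reached that p, which is 0.0343 after adjustment over the 12. The pairs were chosen after seeing the data and use the same counts as the tests of single genes, so they add no separate support. Lane was not taken into account in these ratios. The ratio of IL1R1, the receptor, to IL1RN, its antagonist, lay in proliferation between 26.1 and 41.6 in monoculture, and between 45.6 and 90.7 in coculture. At 24 h it ran from 22.6 to 35.7 and 37.1 to 111, and at 72 h from 16.3 to 35.9 and 70.6 to 135. Coculture was higher without overlap at each time, by 1.89-fold, 2.30-fold and 3.55-fold. IL1RL1 over IL1RAP, the chains of the IL33 receptor, was higher in coculture in proliferation (1.28 to 1.65 against 0.951 to 1.09). At 24 h that ratio was lower in coculture (0.120 to 0.186 against 0.215 to 0.397), and at 72 h it did not pass the test, with 0.0701 to 0.0785 within the monoculture range of 0.0438 to 0.115 (exact permutation p = 0.83). IL1R1 over IL1RAP was higher in coculture by 0.27 in proliferation and 0.62 at 72 h on the log2 scale, and by 0.21 at 24 h, where it missed the threshold (exact permutation p = 0.0857, adjusted 0.0935). IL4R over IL13RA1, the chains of the shared IL4 and IL13 receptor, was higher in coculture by 0.66, 0.10 and 0.67.

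**Figure D3:**
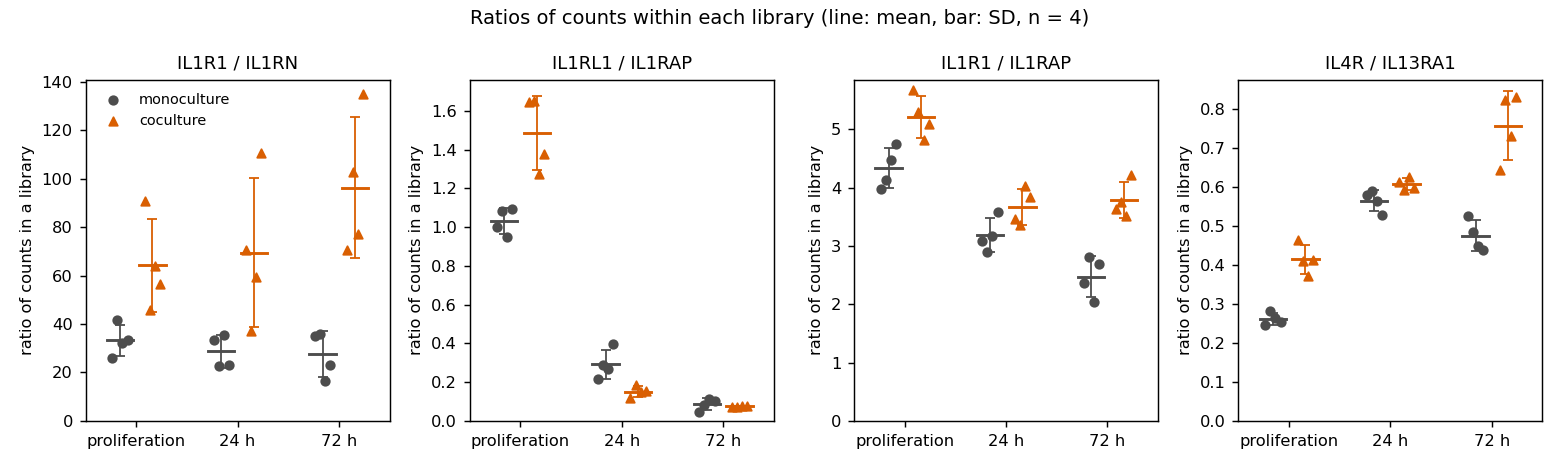
Ratio of the counts of 2 genes in the same library (y axis, linear from 0) by culture and time for 4 pairs of genes, with points for libraries, lines for means and bars for the SD. IL1R1 over IL1RN lies higher in coculture at each time, 70.6 to 135 against 16.3 to 35.9 at 72 h.

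Of the other receptor chains and ligands, IL13RA1, the partner of IL4R, was lower in coculture in proliferation and higher later. It stood at 114.7 ± 2.42 CPM against 149.3 ± 1.51 in proliferation (SD, n = 4), 96.0 ± 3.25 against 83.8 ± 3.92 at 24 h and 153.8 ± 10.4 against 111.9 ± 4.96 at 72 h, and all 3 differences were called (-0.38, 0.20 and 0.46). IL18, an IL1 family ligand, was lower in coculture at each time, by -0.95, -0.59 and -0.49, and in proliferation it stood at 16.9 ± 0.664 CPM against 32.7 ± 0.824. At 72 h the IL18 call ended with lane as a covariate (-0.42, adjusted p = 0.0596), and the difference was -0.28 (adjusted p = 0.0147) without the libraries rich in ribosomal RNA. IL36A, another ligand of the family, was also lower, by -0.73, -0.61 and -0.62, at 0.816 to 6.05 CPM across all libraries. IL36A lost its call with lane as a covariate at 24 h (-0.44, adjusted p = 0.195) and at 72 h (-0.27, adjusted p = 0.569). IL18R1, the neighbour of IL1RL1, was lower in coculture in proliferation (-0.54) and at 24 h (-0.47), and at 72 h the difference was 0.23 (adjusted p = 0.057), or 0.36 and called with library sizes alone (adjusted p = 0.00517). IL18BP, which binds and blocks IL18, was lower at 72 h by -0.61, with 0.35 (adjusted p = 0.216) and 0.05 (adjusted p = 0.866) before. The 72 h call of IL18BP ended with lane as a covariate (-0.49, adjusted p = 0.256). IL33, IL1A, IL1B, IL4, IL13, IL1R2 and IL2RG were not analysed here.

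The signalling genes downstream were read from lists, with the median log2 difference over all genes at 0.00 at each time. Each count is to be read against all genes, of which 30.3% were higher and 28.7% lower in coculture in proliferation, 11.5% and 12.2% at 24 h, and 25.1% and 25.4% at 72 h. Of 16 listed adaptors and kinases at the IL1 and IL33 receptors, 5 were higher and 8 lower in coculture in proliferation, 6 higher and 1 lower at 24 h, and 7 higher and 4 lower at 72 h (list medians -0.08, 0.10 and 0.10). The share called was 81.2%, 43.8% and 68.8%, against 59%, 23.8% and 50.5% of all genes. IRAK3, a kinase relative that restrains the pathway, was lower in proliferation (-0.41, adjusted p = 0.0014) and higher at 72 h, at 8.70 ± 0.55 CPM against 4.57 ± 0.65 (0.95, adjusted p = 1.97e-08). PELI1, a ubiquitin ligase of the pathway, was lower in proliferation (-0.26) and higher at 24 h (0.52) and at 72 h (0.47). TOLLIP, an adaptor that dampens the pathway, was higher in proliferation (0.19) and lower at 72 h (-0.39). SQSTM1, a scaffold that binds TRAF6, was lower at 24 h (-0.71), at a mean of 175 CPM against 285. At 72 h SQSTM1 was lower by -0.20 (adjusted p = 0.000154), a call that ended with library sizes alone (-0.07, adjusted p = 0.257).

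Of 14 listed NF-kB genes, 7 were higher and 1 lower in coculture in proliferation, 0 higher and 2 lower at 24 h, and 7 higher and 1 lower at 72 h (list medians 0.21, -0.14 and 0.13). The share called, 57.1%, 14.3% and 57.1%, was close to that of all genes in proliferation and at 72 h and below it at 24 h. TNFAIP3, an inhibitor that NF-kB itself induces, rose most at 72 h, to 23.3 ± 8.5 CPM against 7.73 ± 1.7 (1.62, adjusted p = 9.1e-09). TNIP1, its partner, was higher in proliferation (0.46) and at 72 h (0.88), and NFKBIZ, an induced co-regulator, at 72 h (0.46). RELB and NFKB2, subunits of the non-canonical arm, were lower at 24 h (-0.53 and -0.33). Both were higher at 72 h (0.33 and 0.34), and NFKB2 was higher in proliferation too (0.25). With lane as a covariate, chosen after seeing the data, 4 of these NF-kB genes and 4 of the adaptors were higher at 72 h. Of 8 listed p38 and JNK kinases, 3 were higher and 1 lower in proliferation, 0 were called at 24 h and 1 in each direction at 72 h.

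Of 15 listed genes known to be induced by IL1 in mesenchymal cells, 1 was higher and 7 lower in proliferation, 1 higher and 6 lower at 24 h, and 9 higher and 2 lower at 72 h, with list medians of -0.40, -0.24 and 0.64. The share called was 53.3%, 46.7% and 73.3%, against 59%, 23.8% and 50.5% of all genes. With lane as a covariate the 72 h count was 7 higher and 1 lower, and without the libraries rich in ribosomal RNA it was 10 and 3, with 4 higher at 24 h. At 72 h SOD2, a mitochondrial superoxide dismutase, stood at 112 ± 49 CPM against 16.8 ± 4.7 (2.75, adjusted p = 1.71e-12). IL6 stood at 128 ± 59 CPM against 20.2 ± 5.9 (2.67, adjusted p = 1.16e-11), and CFB, a complement factor, at 52.8 ± 31 against 8.84 ± 10 (2.64, adjusted p = 2.74e-06). The CFB call ended with lane as a covariate (2.81, adjusted p = 0.0597), and without the libraries rich in ribosomal RNA the difference was 4.69. PTGES, an enzyme of prostaglandin E2 synthesis, was lower at each time, by -1.19, -1.45 and -1.07, the last not called with lane as a covariate (-0.99, adjusted p = 0.0904). CXCL5, a chemokine, was lower in proliferation by -1.01 and was not called at 24 h (0.38, adjusted p = 0.0782). At 72 h CXCL5 was higher, at 479 ± 159 CPM against 82.3 ± 20.0 (2.55, adjusted p = 9.55e-14). ICAM1, an adhesion molecule, was lower in proliferation by -0.51 and at 24 h by -1.19. These genes also answer to other signals, and no list was tested as a set.

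Of 13 listed genes of IL4 signalling, 7 were higher and 4 lower in coculture in proliferation, 4 higher and 0 lower at 24 h, and 7 higher and 1 lower at 72 h, or 4 and 0 with lane as a covariate (list medians 0.19, 0.12 and 0.20). The share called was 84.6%, 30.8% and 61.5%, against 59%, 23.8% and 50.5% of all genes. JAK2 was lower in proliferation (-0.33) and higher at 24 h (0.45) and at 72 h, at 51.8 ± 5.1 CPM against 32.6 ± 1.1 (0.67, adjusted p = 1.22e-09). SOCS3, an inhibitor of JAK signalling, was higher at each time, by 1.10, 0.56 and 0.66. IRS2, a docking protein of the receptor, was higher at 24 h (0.78) and at 72 h (0.40). SOCS1, another inhibitor, was higher in proliferation (1.41) and lower at 72 h (-0.72), at 2.10 ± 0.58 CPM against 3.42 ± 1.1, a call that ended with lane as a covariate (-1.03, adjusted p = 0.0752). Of 5 listed genes known to be induced by IL4, 3 were higher and 1 lower in proliferation, 0 higher and 2 lower at 24 h, and 0 higher and 3 lower at 72 h. POSTN, a matrix protein of that list, was lower at 24 h (-0.58) and 72 h (-0.51). Of 5 listed genes for the release of IL1 family ligands and for shedding of receptors, 1 was higher and 2 lower in proliferation, 0 higher and 1 lower at 24 h, and 4 higher and 0 lower at 72 h, led by CASP8 (0.75).

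**Figure D4:**
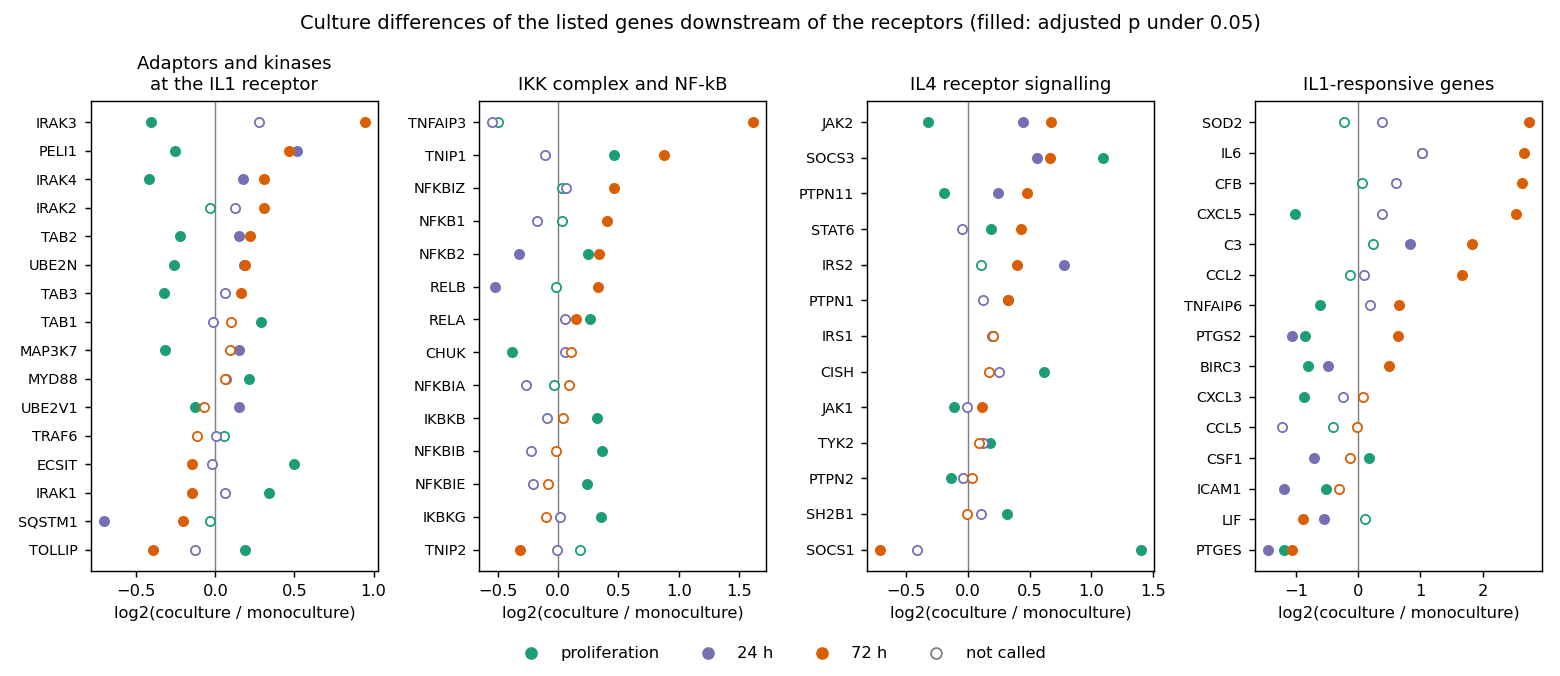
Log2 difference of coculture over monoculture (x axis) for each listed gene (y axis) of 4 lists, with a point for each of the 3 times, filled where called. The IL1-induced genes have medians of -0.40, -0.24 and 0.64, in order of time.

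In the authors' deposited tables the culture differences of the 5 genes had the same calls at an adjusted p of 0.05, except for IL1RN at 24 h (-0.81, adjusted p = 0.138). In the authors' deposited table for 72 h the values were 1.14 for IL4R, 0.62 for IL1R1 and -1.21 for IL1RN.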

How the data were processed

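RNA of 24 libraries in 6 groups of 4 was analysed from the gene counts that the authors deposited, whole numbers of reads per gene and library. The submitters' processing notes name STAR, RSEM, DESeq2 and FastQC and no versions, so the counts may be rounded RSEM estimates. The genome build was not stated. Per the file headers, the authors' deposited comparison tables hold log2 fold changes and adjusted p-values for each time. Of 36 library columns, 12 fit no label and were left out.

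In R 4.3.3, edgeR 4.0.16 fitted 1 mean per group to all 24 libraries with TMM scaling (18 residual degrees of freedom). Its low-count filter removed 0 of 11937 genes. Each of 10 comparisons was tested with the quasi-likelihood F test, with Benjamini-Hochberg adjustment and a threshold of 0.05. SE and 95% intervals come from that fit. No libraries were identical. The fit was tested on simulated data. Alternatives used DESeq2 1.42.0, limma 3.58.1, other scalings and filters, a replicate block, lane, and each library left out.

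The members and lists were chosen with earlier results of these data known. The 5 genes and the listed ligands and receptor chains are always described; of other lists, up to 3 called genes with the largest rise and fall per comparison are named, and 3 genes most like each of the 5.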

Additional observations from a re-analysis of the deposited data

Results flagged for a closer look

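IL1RL1 in coculture at 24 h had a highest library, replicate 2 at 1.85 CPM, that stood farther from the other 3 than a 95% limit for the gap allows. That library also has the largest share of nuclear ribosomal RNA, 4.07%. The check covered 30 groups of 4 values, and chance alone marks about 1 in 20.

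The culture difference itself differed between times, by edgeR's quasi-likelihood test of the interaction, for 4 of the 5 genes. Between proliferation and 24 h it changed by -0.94 for IL1RL1, 0.54 for IL1RAP and 0.48 for IL1R1. Between 24 h and 72 h it changed by 0.26 for IL1R1 and 0.84 for IL4R. Between proliferation and 72 h it changed by 0.40 for IL1RAP, 0.74 for IL1R1 and 0.86 for IL4R.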

How the results depend on the processing

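Of 31 called differences of the 5 genes, 23 kept their direction and call under each alternative run, among them all 3 culture differences of IL4R and the 24 h and 72 h differences of IL1R1. Where a value changed, the cause was not tested, also where the alternative holds fewer libraries. IL1RN and late IL1RL1 rest on few reads, which limits their precision. Requiring 5 CPM in 4 libraries removed IL1RN, so it has no value there. The ratio tests and the list counts with lane or without libraries rich in ribosomal RNA were chosen after seeing the data.

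IL1RN at 24 h lost its call with DESeq2 (-0.82, adjusted p = 0.076), with a fit on the compared groups only (-0.82, adjusted p = 0.0658), with lane as a covariate (-0.51) and with lane 6 libraries only (-0.51). Between the cultures at a given time the replicate numbers showed no pairing: same-numbered deviations correlated at -0.127 to 0.119. Pairing across times was not checked. With the replicate block IL1RN at 24 h was -0.81 (adjusted p = 0.0556), and no other call changed.

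With library sizes alone, which moved the median of all genes by -0.07, 0.00 and 0.13 at the 3 times, IL1R1 in proliferation was called at -0.19. Over time in monoculture, IL1RAP to 24 h became -0.024, IL4R to 24 h lost its call at 0.086 and IL1R1 from 24 h to 72 h became -0.0029. In coculture to 24 h, IL1RN became -0.034, and IL1R1 (0.058) and IL4R (0.17) lost their calls. With limma-voom IL1RAP at 72 h was -0.0081.

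With lane as a covariate, IL1RL1 at 24 h (-0.69, adjusted p = 0.0577) and IL1RN at 72 h (-0.52) lost their calls, IL1RL1 at 72 h became 0.033, and 3402 of all genes were called at 72 h, against 6029. Under that fit the change of the culture difference from 24 h to 72 h for IL1R1 (0.25), the coculture step to 24 h of IL1R1 (0.17) and the later coculture step of IL1RL1 (-0.58) also lost their calls, and IL1RN turned for the later coculture step (0.17) and for the change from proliferation to 72 h (0.40). With lane 6 libraries only IL1RL1 at 24 h was -0.70 (adjusted p = 0.0812) and 1746 of all genes were called, against 2836.

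Without the 4 libraries rich in ribosomal RNA, IL1RN at 72 h (-0.91, adjusted p = 0.0565), the change from 24 h to 72 h for IL1R1 (0.20) and the later coculture step of IL1RL1 (-0.54) lost their calls. IL4R from 24 h to 72 h in monoculture (0.22) and the change from 24 h to 72 h for IL1RL1 (1.23) gained one. IL1RL1 turned at 72 h (0.31) and for the change from proliferation to 72 h (0.16). IL1RN turned for the changes to 24 h (-0.19), from 24 h to 72 h (0.20) and from proliferation to 72 h (0.012), and for the steps in monoculture to 72 h (-0.23) and in coculture to 24 h (-0.20).

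Leaving out each library in turn, IL1RN at 24 h ran from -1.10 to -0.57, IL1RL1 at 72 h from -0.44 to 0.089 and IL1RAP at 72 h from -0.061 to 0.078. The IL1R1 change from 24 h to 72 h ran from 0.22 to 0.33 and its coculture step to 24 h from 0.14 to 0.22, which lost its call without coculture replicate 2 in proliferation or replicate 1 or 3 at 24 h. The later coculture step of IL1RL1 ran from -0.77 to -0.56. IL4R ran from 0.14 to 0.19 in monoculture from 24 h to 72 h and gained a call without replicate 3 of monoculture or 1 or 2 of coculture at 72 h, and its change to 24 h ran from -0.020 to 0.067. IL1RN, never called in these, ran from -0.18 to 0.35 for the change to 24 h, -0.15 to 0.10 and -0.047 to 0.35 for the monoculture steps, and -0.19 to 0.34 and -0.44 to 0.091 for the coculture steps.

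Counts of called listed genes moved by over 1.5 times, or to or from 0, as follows. At 72 h library sizes alone took adaptors lower from 4 to 1, p38 and JNK kinases from 1 higher and 1 lower to 4 and 0, NF-kB genes lower from 1 to 0, other IL1 family receptors higher from 0 to 1 and fibroblast markers from 3 higher and 4 lower to 6 and 2. In proliferation they took p38 and JNK kinases lower from 1 to 3, NF-kB genes, IL4-induced genes and satellite markers lower each from 1 to 2, and IL1-induced genes higher from 1 to 0. Lane as a covariate took adaptors, NF-kB genes and IL4 signalling genes higher at 72 h each from 7 to 4, release and shedding genes from 4 to 2 and satellite markers from 2 to 0. Under it, lower at 72 h went IL4-induced genes from 3 to 1, IL1-induced genes from 2 to 1 and ligands from 2 to 0, and IL18BP, SOCS1, the p38 and JNK kinases in each direction and RORA each went from 1 to 0. At 24 h it took ligands lower from 2 to 1, adaptors from 1 to 2 and release and shedding genes from 1 to 0. Without the libraries rich in ribosomal RNA, adaptors lower at 72 h went from 4 to 2, NF-kB genes lower from 1 to 0 there, from 2 to 4 at 24 h and from 1 to 2 in proliferation, and IL1-induced genes higher from 1 to 4 at 24 h and 1 to 2 in proliferation. Fibroblast markers higher at 72 h went from 3 to 5, and satellite markers higher from 2 to 1 at 72 h and 1 to 2 at 24 h, and lower from 1 to 2 in proliferation.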

Other observations

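The genes whose log2 CPM followed each receptor gene most closely over the 24 libraries were named by Pearson's r among 10754 genes with a symbol, as a description, since libraries of a group share culture and time. For IL1RL1 they were SLC25A5 (r = 0.962), TLCD3A (0.955) and RASL12 (0.954). For IL1RAP they were ITSN1 (0.938), TP53INP1 (0.931) and SYT4 (0.928). For IL1R1 they were BICC1 (0.928), HIVEP2 (0.916) and MDFIC (0.907), and for IL4R they were RTL8A (0.975), SERPINE2 (0.963) and RNF213 (0.962). IL1RN, which had the fewest reads of the 5, had lower values, with TTR (0.843), ANKRD29 (0.807) and HSD17B12 (0.805). Among the 5 genes themselves, IL1R1 and IL4R had r = 0.776, and IL1RL1 and IL1RAP had r = -0.862.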
